A study of Mus musculus with 12 samples.

Results

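The genes described here are 10 regulators and targets of the epithelial-mesenchymal transition, the program by which epithelial cells loosen their contacts and take on features of mesenchymal cells. They are the transcription factors Zeb1, Zeb2, Snai1, Snai2, Twist1 and Twist2, the mesenchymal targets Cdh2, Fn1 and Vim, and the epithelial regulator Grhl2. They were chosen by symbol, with no filter on their values but with earlier results of these tumors known, and all 10 were among the 21960 genes listed for each tumor.

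The tumors came from female C57BL/6 mice that express the polyoma virus middle T oncoprotein (PyMT) from the mouse mammary tumor virus promoter, which drives the oncogene in the mammary epithelium, so that carcinomas arise on their own in the glands. Whole tumors were profiled by RNA sequencing, 12 in all and 3 in each of 4 groups. The IgG1 and anti-PD-1 groups received an isotype control or a PD-1-blocking antibody alone, from a tumor diameter of 0.6 cm, at 20 mg/kg for the first dose and 10 mg/kg for later doses. The DOX/IgG1 and DOX/anti-PD-1 groups were treated from a diameter of 1 cm with 5 mg/kg of the chemotherapeutic doxorubicin, followed by 10 mg/kg of the same antibodies, once weekly for 5 weeks. The series labels state 5 weeks for every group, while the protocol ends antibody monotherapy on day 18. A difference between a group with doxorubicin and a group without it therefore cannot be told apart from a difference in starting tumor size, first antibody dose or schedule.

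As background, Zeb, Snail and Twist proteins bind E-box sequences and repress epithelial genes such as that of E-cadherin, whereas grainyhead-like 2, the product of Grhl2, maintains epithelial genes and opposes Zeb1. N-cadherin (Cdh2), fibronectin (Fn1) and vimentin (Vim) are classical readouts of the mesenchymal state. All of these mesenchymal genes are also active in fibroblasts, pericytes or other stromal cells, which a whole mammary tumor contains. In such bulk RNA, more cells of a type and more RNA per cell cannot be told apart, and the source of the transcripts was not measured.

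Levels are given in TPM, the share of a gene among all transcripts scaled to a fixed total, recovered from the deposited log2(TPM + 1). The sequencing depth is unknown because TPM keep no read counts. Testing with limma on log2(TPM + 1) required a level of 1 TPM or more in 3 or more of the tumors in a comparison. A gene was called when the Benjamini-Hochberg adjusted p was below 0.1 and the absolute log2 fold change above 1. All log2 fold changes below are differences of mean log2(TPM + 1), which understate the change of genes of low level. Each library came from 1 tumor, and the labels name no animals. The p-values set group differences against the spread between these tumors, which were treated as independent.

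One library has to be set apart before the results. Across the 10 genes, DOX/IgG1 replicate 1 differed from the mean of the other tumors of its group by 1.61 log2 units on average, against 0.294 to 0.975 in the 11 other tumors. Its average correlation with its own group over 14735 genes was 0.863, the lowest of the 12. The header of its data column alone carries the word test, whose meaning was not stated. The tests of the 10 genes are given with and without it, and leaving it out in preference to other tumors was chosen after the values were seen. Because its distance on these same 10 genes was part of that choice, counts and medians among the 10 without it are not a fair comparison with the shares and medians of all genes printed beside them.

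Zeb1 (ENSMUSG00000024238, chromosome 18, 5591860 to 5775467, plus strand, GRCm38) encodes a zinc finger repressor of epithelial genes. It was measured at 14.8, 22.9 and 38.9 TPM in IgG1, 28.6, 14.2 and 22.7 TPM in anti-PD-1, 16.3, 64.8 and 66.5 TPM in DOX/IgG1 and 32.0, 30.4 and 46.2 TPM under DOX/anti-PD-1. All DOX/anti-PD-1 tumors lay above all anti-PD-1 tumors, and DOX/IgG1 replicates 2 and 3 lay above every tumor without doxorubicin, whereas DOX/IgG1 replicate 1 lay among them.

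Its paralog Zeb2 (ENSMUSG00000026872, chromosome 2, 44983632 to 45117395, minus strand) was more abundant, with a mean over the 12 tumors of 55.2 TPM against 33.2 TPM for Zeb1. It reached 35.0, 53.9 and 59.3 TPM in IgG1, 37.3, 38.4 and 39.5 TPM in anti-PD-1, 30.3, 86.0 and 102.8 TPM in DOX/IgG1 and 65.8, 52.5 and 61.7 TPM under DOX/anti-PD-1. The anti-PD-1 tumors were close to one another and below all DOX/anti-PD-1 tumors, and the highest and the lowest value of the 12 both belonged to the DOX/IgG1 group.

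RefSeq start-site windows on GRCm38.p6, from 250 bases before to 50 after the start, were matched for 5 of the 10 genes, Snai1, Twist1, Twist2, Vim and Zeb2. The 250 bases before the start are shown for Zeb2 (its most upstream start of 4, chr2:45117443-45117692, minus strand), Twist1 (chr12:33957421-33957670, plus strand) and Vim (chr2:13574061-13574310, plus strand), the 3 of these genes whose levels separated DOX/anti-PD-1 from anti-PD-1 tumors. Capitals mark matches on either strand (a reverse match of CCAAT reads ATTGG) to the CCAAT box, to the TATA box spelled TATAAA (in reverse TTTATA), and to CAGGTG (in reverse CACCTG), an E-box that Zeb and Snail proteins can bind. No match overlapped another.
Zeb2: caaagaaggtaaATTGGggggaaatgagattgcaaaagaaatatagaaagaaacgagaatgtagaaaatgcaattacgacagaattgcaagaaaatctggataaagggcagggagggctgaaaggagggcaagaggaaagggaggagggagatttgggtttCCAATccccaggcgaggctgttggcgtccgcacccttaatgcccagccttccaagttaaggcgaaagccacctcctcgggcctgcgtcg
Twist1: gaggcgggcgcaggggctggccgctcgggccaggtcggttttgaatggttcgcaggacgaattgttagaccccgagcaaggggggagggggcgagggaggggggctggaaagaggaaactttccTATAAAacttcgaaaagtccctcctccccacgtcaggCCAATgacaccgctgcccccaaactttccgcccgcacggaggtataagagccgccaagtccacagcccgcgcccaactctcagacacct
Vim: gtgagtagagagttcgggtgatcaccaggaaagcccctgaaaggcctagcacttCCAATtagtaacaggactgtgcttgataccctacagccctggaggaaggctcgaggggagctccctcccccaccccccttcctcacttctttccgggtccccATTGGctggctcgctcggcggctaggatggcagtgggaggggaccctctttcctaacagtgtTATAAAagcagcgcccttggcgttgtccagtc

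A CCAAT match was found in 5 of the 8 windows of these genes, 1 window for each gene, with none in 3 of the 4 windows of Zeb2. The sequence is present in 37.4% of the 32851 windows of this length. TATAAA was matched for Twist1 and Vim, at positions -126 and -32 from the start, and is present in 13.6% of all windows. Among the genes searched, CAGGTG was matched for Snai1 alone, and it is present in 20.2% of all windows. A match is a description of letters in these windows, and no factor binding was measured. Zeb1, Snai2, Cdh2, Fn1 and Grhl2 had no window in the search, so nothing is known here of matches at their starts. Zeb1 is among them although its unscaled levels also separated DOX/anti-PD-1 from anti-PD-1 tumors.

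Snai2 (ENSMUSG00000022676, chromosome 16, 14705852 to 14709385, plus strand) encodes Slug, a Snail family repressor that is also found in basal mammary cells. It was measured at 3.92, 8.44 and 13.4 TPM in IgG1, 4.81, 6.17 and 8.87 TPM in anti-PD-1, 3.34, 18.9 and 24.3 TPM in DOX/IgG1 and 6.42, 10.2 and 25.0 TPM under DOX/anti-PD-1. The groups overlapped in each comparison, and 3 tumors with doxorubicin exceeded every tumor without it.

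Snai1 (ENSMUSG00000042821, chromosome 2, 167538195 to 167542814, plus strand), which encodes Snail, was near the lower end of detection. It was listed at 0 in 4 tumors, and the values were 0, 0.63 and 0 TPM for IgG1, 1.01, 2.34 and 0 TPM in anti-PD-1, 1.41, 1.04 and 0.63 TPM in DOX/IgG1 and 0, 0.50 and 2.10 TPM under DOX/anti-PD-1. Because a listed 0 may come from a failed estimate, group means are left out for this gene, and it did not reach the minimum for testing in the comparisons DOX/IgG1 vs IgG1 and anti-PD-1 vs IgG1.

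Twist1 (ENSMUSG00000035799, chromosome 12, 33957671 to 33959829, plus strand) encodes a basic helix-loop-helix factor of mesoderm and mesenchyme. Its levels were 4.15, 6.30 and 4.56 TPM in IgG1, 3.05, 4.30 and 3.52 TPM in anti-PD-1, 5.64, 12.0 and 6.93 TPM in DOX/IgG1 and 4.65, 5.99 and 12.7 TPM under DOX/anti-PD-1. The DOX/anti-PD-1 tumors were again all above the anti-PD-1 tumors, the lowest of them narrowly.

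Its relative Twist2 (ENSMUSG00000007805, chromosome 1, 91801461 to 91848028, plus strand) also had values listed at 0, with 1.02, 1.17 and 0 TPM in IgG1, 0, 0.25 and 0.65 TPM in anti-PD-1, 0, 2.95 and 0.79 TPM in DOX/IgG1 and 0.73, 0.63 and 0 TPM under DOX/anti-PD-1. Of its possible 75-base reads, 45.3% also occur in the antisense gene Gm29100, and although the libraries were stranded, whether the counting step used the strand is not stated in the sources used here, so the small values of Twist2 are uncertain. For the other 9 genes this share was 0 or small. Among the pairwise comparisons Twist2 was tested only in DOX/IgG1 vs IgG1.

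Among the targets, Vim (ENSMUSG00000026728, chromosome 2, 13573927 to 13582826, plus strand), the intermediate filament gene of mesenchymal cells, was the most abundant of the 10 genes and had the largest difference between groups. It was measured at 458, 213 and 359.9 TPM in IgG1, 242, 300.3 and 358 TPM in anti-PD-1, 439, 1820.5 and 801 TPM in DOX/IgG1 and 499.9, 482 and 587 TPM under DOX/anti-PD-1. In these values all DOX/anti-PD-1 tumors lay above all 6 tumors without doxorubicin, which did not hold after the scaling between tumors described below. DOX/IgG1 replicate 2 was far above every other tumor, and DOX/IgG1 replicate 1 lay within the range of the IgG1 tumors. The group means were 344 ± 123 TPM (SD, n = 3) in IgG1, 300.1 ± 58.1 in anti-PD-1, 1020 ± 716 in DOX/IgG1 and 523 ± 56.3 in DOX/anti-PD-1 tumors.

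Cdh2 (ENSMUSG00000024304, chromosome 18, 16588877 to 16809246, minus strand), which encodes N-cadherin, had the widest range. Its levels were 10.7, 8.41 and 10.9 TPM in IgG1, 7.72, 13.4 and 15.7 TPM in anti-PD-1, 1.17, 27.6 and 26.1 TPM in DOX/IgG1 and 9.67, 14.9 and 8.34 TPM under DOX/anti-PD-1. The DOX/IgG1 group thus held both extremes, 23.6-fold apart, while the other 9 tumors stayed between 7.72 and 15.7 TPM.

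Fn1 (ENSMUSG00000026193, chromosome 1, 71585520 to 71653200, minus strand) encodes the matrix glycoprotein fibronectin. It was measured at 546, 315 and 467 TPM in IgG1, 319.9, 319.7 and 430.4 TPM in anti-PD-1, 854, 268 and 314 TPM in DOX/IgG1 and 352, 497 and 527 TPM under DOX/anti-PD-1. It ran opposite to Cdh2 in the DOX/IgG1 group, where replicate 1 was the highest and replicate 2 the lowest of all 12 tumors.

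Grhl2 (ENSMUSG00000022286, chromosome 15, 37233036 to 37363569, plus strand), the epithelial member, varied least, by 2.26-fold from lowest to highest. Its levels were 34.6, 54.9 and 42.5 TPM in IgG1, 37.8, 38.5 and 35.7 TPM in anti-PD-1, 59.2, 30.5 and 26.2 TPM in DOX/IgG1 and 38.3, 42.3 and 40.03 TPM under DOX/anti-PD-1. The lowest values were those of DOX/IgG1 replicates 2 and 3, which were high in Zeb1, Zeb2 and Cdh2, and the highest was that of DOX/IgG1 replicate 1.

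By group mean, Zeb1, Zeb2, Snai2, Twist1 and Vim shared one order, in TPM, in log2 values and in scaled TPM. DOX/IgG1 came first, then DOX/anti-PD-1, IgG1 and anti-PD-1. In log2 values after scaling, Snai2 was instead higher by 0.019 in DOX/anti-PD-1 than in DOX/IgG1 tumors. In unscaled values, neighbors in that order overlapped for all 5 genes with the exception of Vim. Its DOX/anti-PD-1 values lay above its IgG1 values, in a pair that differs in both agents and was not tested. After scaling, Zeb2 was lower in every anti-PD-1 tumor than in any IgG1 tumor. Fn1 had this order in mean TPM only. In log2 values DOX/anti-PD-1 came first and in scaled TPM IgG1 did, and 2 of the 3 DOX/IgG1 tumors lay below all DOX/anti-PD-1 tumors. Cdh2 and Grhl2 had other orders, and for Grhl2 the 4 group means lay between 37.3 and 44.0 TPM.

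**Figure D1:**
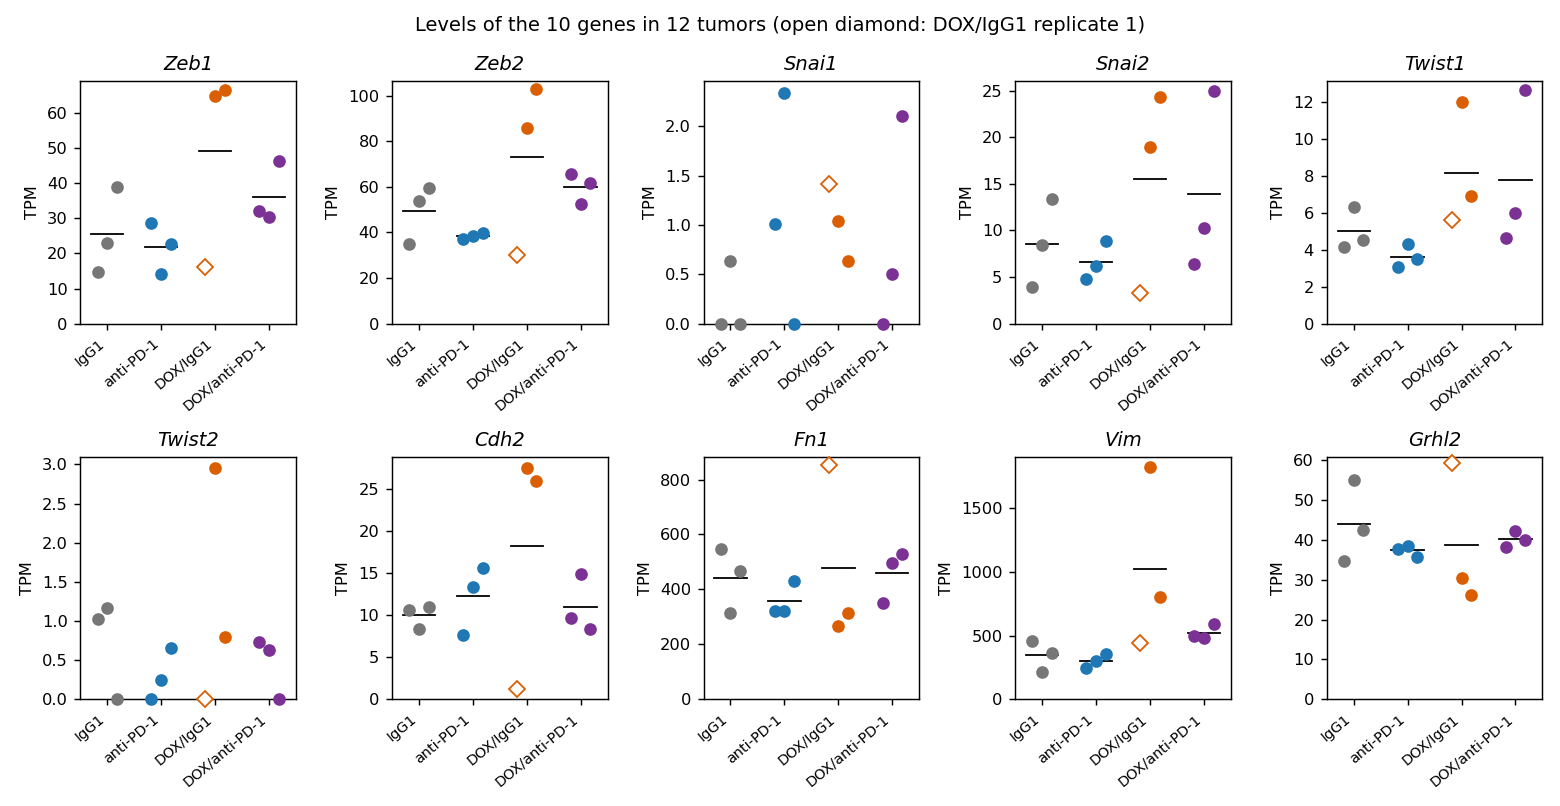
Levels of the 10 genes in each of 12 tumors, in TPM on linear axes that start at 0, by treatment group. Points are tumors, the open diamond is DOX/IgG1 replicate 1, and lines are group means, left out for Snai1 and Twist2 because of values listed at 0; Vim reaches 1820.5 TPM in DOX/IgG1 replicate 2 and stays at or below 458 TPM in the 6 tumors without doxorubicin.

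The first question was whether the mesenchymal genes differed with doxorubicin. Over both antibodies, with the antibody as a covariate and 6 tumors on each side, all 6 transcription factors and Vim had higher average levels with doxorubicin. For Snai1 and Twist2, each listed at 0 in 4 tumors, the differences of 0.29 and 0.19 were smaller than their standard errors of 0.40 and 0.38. None of the 10 genes was called by limma, against 0.0204% of the 14735 genes tested. The genes called were Gas6, St3gal4 and Col27a1, which lie outside the genes and lists fixed for this report and were named after their values were seen. At an unadjusted p below 0.05 there were 3 of the 10 genes, Vim, Twist1 and Zeb1, against 12.0% of all genes. Vim was higher by 1.10 on the log2 scale (standard error 0.30, 95% confidence interval 0.47 to 1.74, limma adjusted p = 0.206), and 5 of the 6 tumors with doxorubicin lay above every tumor without it. For this and the like counts of tumors below, the matching share over all genes was not counted.

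Zeb1 differed by 0.76 (standard error 0.34, limma adjusted p = 0.386) and Twist1 by 0.70 (standard error 0.29, limma adjusted p = 0.354), and for each of them 3 of the 6 tumors with doxorubicin lay above every tumor without it. Zeb2 and Snai2 differed by 0.52 and 0.69 with intervals from -0.022 to 1.06 and from -0.26 to 1.63, and Snai2 was at 0.45 with DOX/anti-PD-1 replicate 3 left out and at 1.05 with DOX/IgG1 replicate 1 left out. For Cdh2, Fn1 and Grhl2 the differences of -0.0073, 0.15 and -0.072 were smaller than their standard errors of 0.51, 0.26 and 0.20. The median over the 10 genes was 0.41, against 0.12 over all genes, of which 63.3% had a higher average level with doxorubicin. Without DOX/IgG1 replicate 1 these medians were 0.65 and 0.13.

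Scaling each tumor by the median of its ratios to the geometric mean moved the median of all genes in this comparison by -0.11, to 0.0063. After this scaling the difference of Vim was 0.98. Scaled Vim was at 538 in IgG1 replicate 1, above 502 and 429.6 in DOX/anti-PD-1 replicates 1 and 2 and 421 in DOX/IgG1 replicate 1, so 3 rather than 5 of the 6 tumors with doxorubicin lay above every tumor without it. After scaling the genes called were 3 higher and 11 lower in place of 3 higher and 0 lower, with none of the 10 among them. The directions of the 10 genes over both antibodies, 8 higher and 2 lower, were also 8 and 2 after scaling.

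Without DOX/IgG1 replicate 1, 2 of the 10 genes were called, Vim at 1.29 (standard error 0.28, limma adjusted p = 0.0577) and Zeb1 at 1.04 (standard error 0.27, limma adjusted p = 0.0928), against 1.44% of all genes. Of the 5 tumors with doxorubicin that remained, 5 for Vim (3 after scaling) and 3 for Zeb1 lay above every tumor without it. Zeb2 had an adjusted p of 0.0657 from limma with a difference of 0.77, short of the limit on size. At an unadjusted p below 0.05 there were 5 of the 10 genes, Vim, Zeb2, Zeb1, Snai2 and Twist1, against 14.7% of all genes. Over all single tumors left out and other settings, the adjusted p of Vim lay between 0.0577 and 0.360 and that of Zeb1 between 0.0928 and 0.580.

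Within the anti-PD-1 groups, which do not involve that tumor, Zeb1, Zeb2, Twist1 and Vim were each higher in every tumor given DOX/anti-PD-1 than in any given anti-PD-1 alone. These were 4 of the 9 genes tested, while 14.9% of 13736 genes had groups that did not overlap. Vim differed by 0.81 (standard error 0.24, limma adjusted p = 0.488), Zeb2 by 0.63 (standard error 0.22, adjusted p = 0.504), Zeb1 by 0.73 (standard error 0.32, adjusted p = 0.569) and Twist1 by 0.83 (standard error 0.43, adjusted p = 0.617). Omitting DOX/anti-PD-1 replicate 3 gave 0.45 for Twist1, and omitting anti-PD-1 replicate 2 gave 0.47 for Zeb1. With limma, none of the 9 was called, nor was any other gene (0%), and 3 of the 9, Vim, Zeb2 and Zeb1, had an unadjusted p below 0.05, against 8.63% of all genes. After median-of-ratios scaling the median of all genes moved by -0.12, to -0.0079, 3 of the 9 genes still had groups that did not overlap, Zeb1 no longer did, and Grhl2 turned from 0.10 to -0.019.

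Between DOX/IgG1 and IgG1 tumors, the spread within the DOX/IgG1 group was large. None of the 9 genes tested was called, against 0.0360% of 13874 genes, which were Smr3a, Bpifa2, Saa1, Saa2 and Hist1h2af, also named after their values were seen. None had groups that did not overlap, against 14.0%, and Vim alone had an unadjusted p below 0.05, against 7.73%. Its difference was 1.39 (standard error 0.50, limma adjusted p = 0.568), and those of Zeb1, Zeb2, Snai2 and Twist1 lay between 0.42 and 0.78. These sizes rest on single tumors, as without DOX/IgG1 replicate 2 they were 0.85 for Vim, 0.47 for Zeb1, 0.21 for Zeb2, 0.26 for Snai2 and 0.29 for Twist1. Omitting DOX/IgG1 replicate 3 gave 0.45 for Zeb1, 0.085 for Zeb2 and 0.089 for Snai2, omitting IgG1 replicate 1 gave 0.46, 0.19 and 0.16, and omitting IgG1 replicate 3 gave 0.93 for Snai2. The median of all genes was 0.12 here and 0.013 after scaling, a shift of -0.11.

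Without replicate 1, the remaining pair of DOX/IgG1 tumors lay outside the range of the IgG1 tumors for 8 of the 9 genes, all but Twist2, with Zeb1, Zeb2, Snai2, Twist1, Cdh2 and Vim above and Fn1 and Grhl2 below. In this smaller set the groups did not overlap for 32.6% of all genes. Vim then differed by 1.88 (standard error 0.43, limma adjusted p = 0.135), Zeb1 by 1.43 (standard error 0.39, adjusted p = 0.187) and Cdh2 by 1.34 (standard error 0.32, adjusted p = 0.145), compared with 0.12 for Cdh2 when all tumors were kept. None of the 9 was called, against 0.879% of all genes, and 5 had an unadjusted p below 0.05, against 13.0%.

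**Figure D2:**
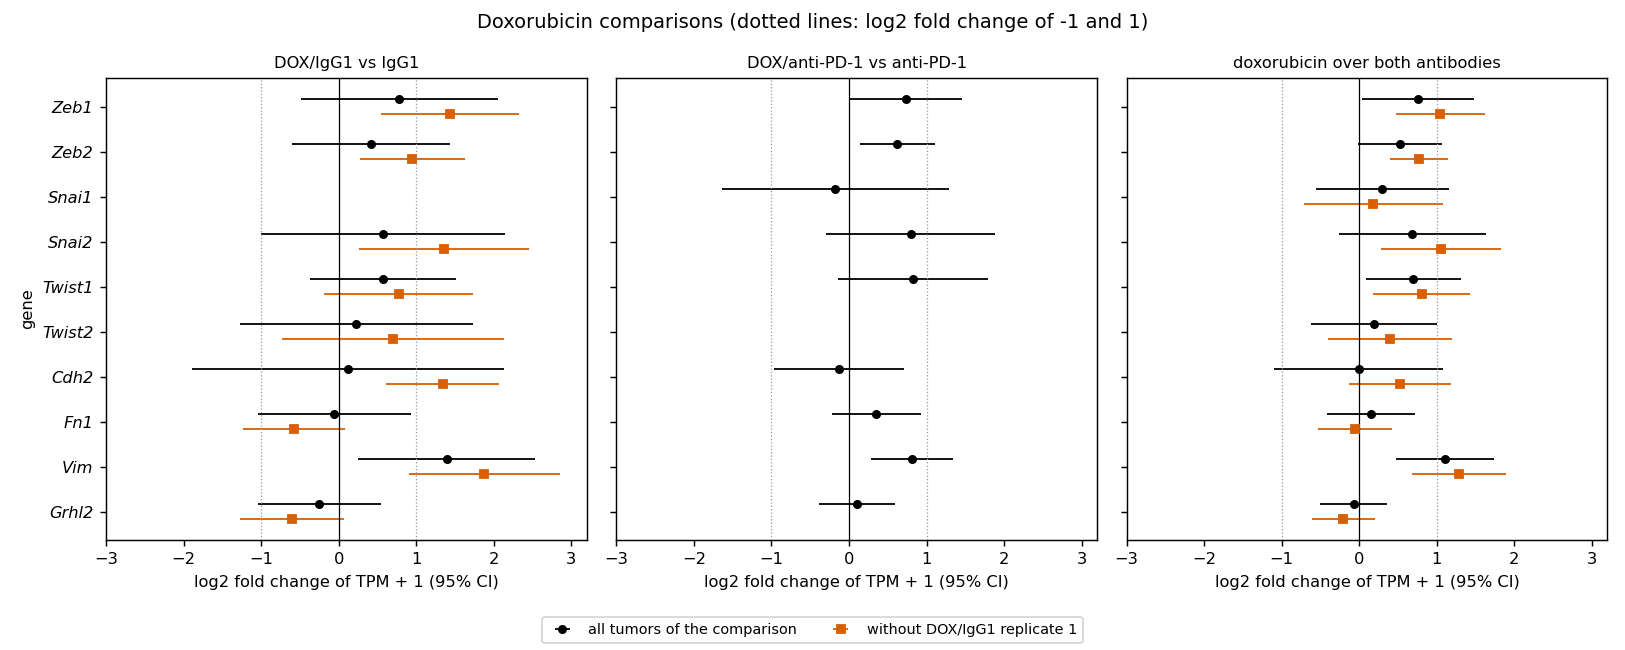
Log2 fold changes of TPM + 1 with 95% confidence intervals from limma for the 3 doxorubicin comparisons, with all tumors (black circles) and without DOX/IgG1 replicate 1 (orange squares); the comparison in the middle does not include that tumor, and genes below the minimum have no point. The interval of Vim over both antibodies runs from 0.47 to 1.74, and Cdh2 in DOX/IgG1 vs IgG1 moves from 0.12 to 1.34 without the tumor.

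The next question was whether the genes differed with anti-PD-1. In the comparison anti-PD-1 vs IgG1, 7 of the 8 genes tested had lower average levels with anti-PD-1, with differences from -0.15 for Vim to -0.37 for Twist1, and Cdh2 differed by 0.22. The median over the 8 was -0.22, against -0.026 over all genes, of which 47.2% had a higher average level with anti-PD-1. Vim was at 0.096 with IgG1 replicate 1 left out, Twist1 at -0.22 with IgG1 replicate 2 left out and Cdh2 at 0.032 with anti-PD-1 replicate 3 left out. None was called by limma and none had an unadjusted p below 0.05, against 0% and 4.60% of 13692 genes, and none had groups that did not overlap, against 9.88%.

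In the comparison DOX/anti-PD-1 vs DOX/IgG1, Vim had the largest difference, at -0.73 (standard error 0.46, limma adjusted p = 0.988), and the other 8 genes tested lay between -0.26 and 0.15. With DOX/IgG1 replicate 2 left out, the difference of Vim was -0.19. None was called (0% of 13946 genes), none had an unadjusted p below 0.05 (4.70% of genes) and none had groups that did not overlap (10.2% of genes). Without DOX/IgG1 replicate 1, Cdh2, Vim, Zeb1 and Zeb2 were lower in every tumor given DOX/anti-PD-1 than in the remaining DOX/IgG1 tumors, and Fn1 and Grhl2 were higher, which made 6 of 9 genes with groups that did not overlap, against 24.7% of genes. Cdh2 then differed by -1.25 (standard error 0.37, limma adjusted p = 0.482) and Vim by -1.21 (standard error 0.36, adjusted p = 0.511). None of the 9 was called, against 0.0287% of genes, and 5 had an unadjusted p below 0.05, against 7.54%.

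Over both chemotherapy arms, no gene of the 10 was called for anti-PD-1 with limma, against 0% of 14735 genes, and none had an unadjusted p below 0.05, against 4.69%. The differences lay between -0.44 for Vim and 0.21 for Snai1, and Vim was at -0.16 with DOX/IgG1 replicate 2 left out. Without DOX/IgG1 replicate 1, Zeb2 at -0.47 and Vim at -0.62 had an unadjusted p below 0.05, against 6.22% of genes, and the calls were again 0 of the 10 and 0% of all genes.

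The interaction asks whether the doxorubicin difference depended on the antibody. It was not called for any of the 10 genes by limma, against 0.00679% of genes (Bpifa2, named after its values were seen), and none had an unadjusted p below 0.05, against 4.71%. For Vim it was -0.58 (standard error 0.60, limma adjusted p = 0.993), and for Cdh2 -0.25 (standard error 1.06). The value of Vim was -1.07 with DOX/IgG1 replicate 1 left out, -0.042 with DOX/IgG1 replicate 2 left out and -0.27 with IgG1 replicate 2 left out. Without DOX/IgG1 replicate 1, Cdh2 at -1.48 (standard error 0.50, limma adjusted p = 0.690) and Fn1 at 0.93 (standard error 0.39, adjusted p = 0.727) had an unadjusted p below 0.05, against 6.45% of genes. The calls were then 0 of the 10 and 0.00679% of all genes.

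Across the 12 tumors, the factors Zeb1, Zeb2 and Snai2 varied together. The Pearson correlation of log2(TPM + 1) was 0.91 between Zeb1 and Zeb2, 0.87 between Zeb1 and Snai2 and 0.85 between Zeb2 and Snai2, with Spearman values of 0.88, 0.83 and 0.84. These are descriptions over tumors that include the treatment groups, drawn from 45 pairs of genes, with no p. Without DOX/IgG1 replicate 1 the same correlations were 0.90, 0.85 and 0.81.

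Twist1 followed Snai2 at 0.72 and Vim at 0.70, while Snai1 stayed between -0.24 and 0.45 with the other 9 genes. The strongest negative correlation was that of Cdh2 with Grhl2, at -0.82 in 12 tumors and -0.73 in 11. Cdh2 and Fn1, both mesenchymal targets, were correlated at -0.72 in 12 tumors but at -0.37 without DOX/IgG1 replicate 1. Cdh2 and Vim had 0.46 with and 0.75 without that tumor.

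Some of these values differed when each group mean was removed first. Twist1 then followed Snai2 at 0.67 and Vim at only 0.44, and Cdh2 and Vim had 0.74. Zeb2 and Fn1 had -0.85, in place of -0.54 with group means kept (-0.36 over 11 tumors). Snai1 reached 0.61 with Twist1. The 3 pairs among Zeb1, Zeb2 and Snai2 had 0.88, 0.85 and 0.83. All values with group means removed include DOX/IgG1 replicate 1, which stood far from its group, and were not computed without it.

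**Figure D3:**
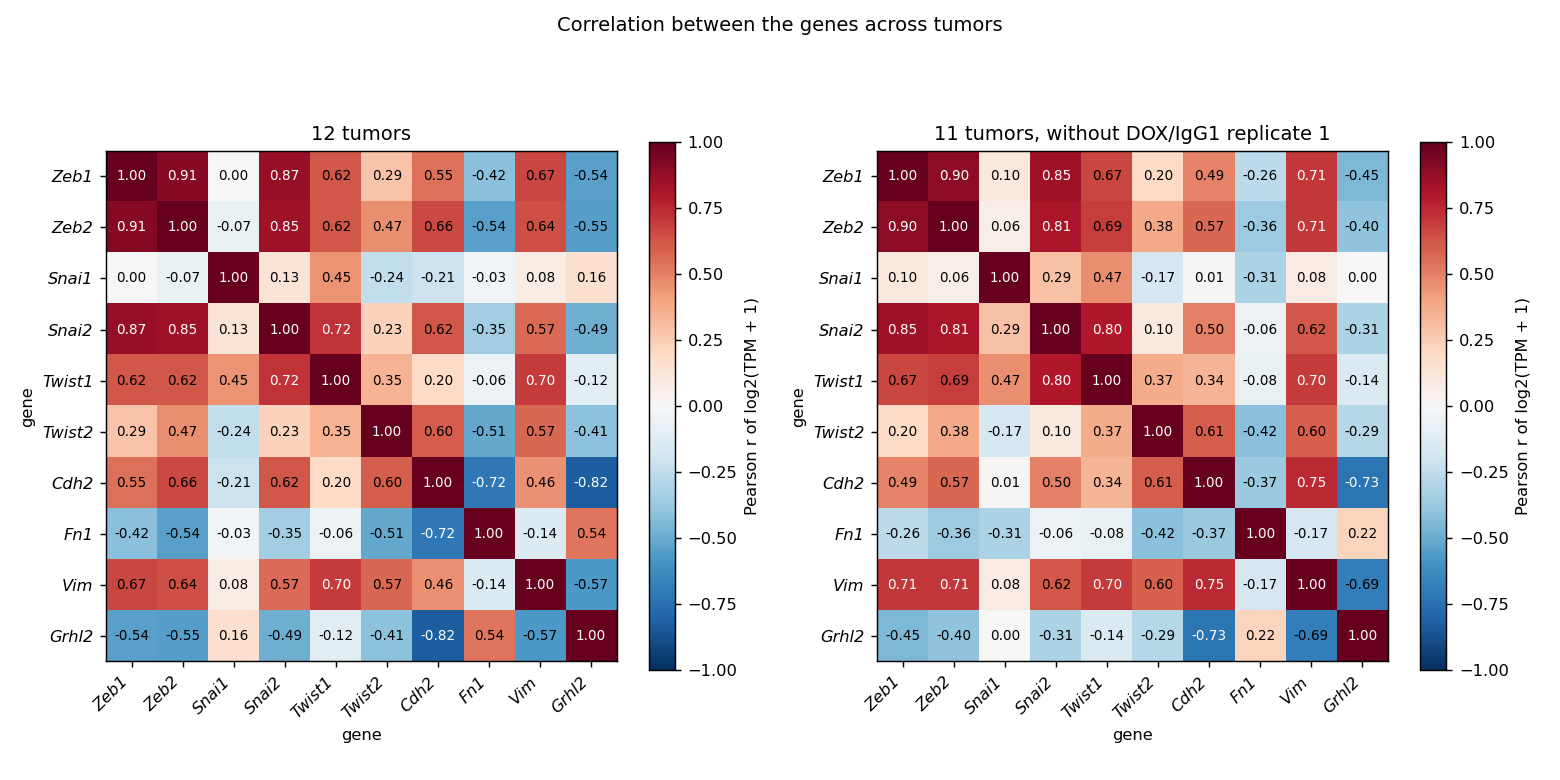
Pearson correlation of log2(TPM + 1) between the 10 genes over 12 tumors (left) and over 11 tumors without DOX/IgG1 replicate 1 (right). Zeb1, Zeb2 and Snai2 form a block of high values in both, from 0.85 to 0.91 on the left, and the negative value of Cdh2 with Fn1 goes from -0.72 to -0.37.

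Among 11301 genes with a mean of at least 5 TPM, the genes most like each member over the 12 tumors were listed without a test. Zeb1 was closest to the sodium channel gene Scn7a, at 0.97, followed by Adamtsl1 and Spock2. Zeb2 was closest to Nrp1, which encodes neuropilin 1, at 0.95, and to the estrogen receptor gene Esr1, also at 0.95, and then to Ado. Snai2 was closest to Ptp4a2 and Sdad1, both at 0.95, and to Ado.

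Twist1 was closest to Plekhh3 at 0.97, ahead of Cygb and Nprl3, and Twist2 to the collagen receptor gene Mrc2 at 0.90, ahead of Enpep and Rgcc. Vim was closest to the angiotensinogen gene Agt at 0.93, to Abca8a at 0.92 and to the proteoglycan gene Dcn at 0.91. Cdh2 was closest to Tmem243, Ckb and Adgrg6 at 0.94, 0.93 and 0.92, and Fn1 to Isy1, Il17ra and the laminin gene Lamb3 at 0.88, 0.88 and 0.84. Grhl2 was closest to Acss1 at 0.91, the glycolytic gene Eno1 at 0.90 and Bcat2 at 0.86. For Snai1 the closest were Mdp1, Rhobtb3 and Nbn, at 0.88 to 0.89, on values that were 0 in 4 tumors. Over the 11 tumors without DOX/IgG1 replicate 1, the same pairs had 0.80 to 0.82 for Cdh2, 0.79 to 0.84 for Fn1 and 0.78 to 0.86 for Grhl2, and 0.86 or more for the other 7 members. No other member was among the 3 genes closest to any member.

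Other genes of the program were read from lists. Of 16 other mesenchymal transcription factors, 9 were tested over both antibodies, 7 with higher and 2 with lower average levels with doxorubicin, and none was called; Foxc2 and Tcf21 were listed at 0 in every tumor. The list's median was 0.36, against 0.12 over all genes. The T-box gene Tbx2 came closest to the limits, with 0.36, 0.55 and 1.13 TPM in IgG1, 0, 0.68 and 0.46 TPM in anti-PD-1, 3.68, 8.15 and 6.57 TPM in DOX/IgG1 and 4.04, 1.52 and 2.75 TPM under DOX/anti-PD-1. All 6 tumors with doxorubicin lay above all 6 without it, at a difference of 1.74 (standard error 0.32, limma adjusted p = 0.107), and without DOX/IgG1 replicate 1 it was called at 1.83 (adjusted p = 0.0315). The share of all genes with such a separation was not counted. Osr1 had 0.98 (standard error 0.38, adjusted p = 0.329) and was called without that tumor at 1.31 (adjusted p = 0.0577). Tcf4, the most abundant of the list, had 0.12.

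Of 25 other epithelial program genes, all were tested over both antibodies, 7 with higher and 18 with lower average levels with doxorubicin, none called, with a median of -0.18. The adhesion gene Epcam, the most abundant, had 853 ± 99.9 TPM (SD, n = 6) without and 605 ± 189 TPM with doxorubicin, a difference of -0.54 (standard error 0.20, limma adjusted p = 0.319). The polarity gene Crb3 differed by -0.74, while the claudin gene Cldn4 and the keratin gene Krt19 differed by 0.96 and 0.82. When DOX/IgG1 replicate 1 was left out, Cldn4 at 1.19 (adjusted p = 0.0304) and Krt19 at 1.18 (adjusted p = 0.0577) were called, both higher, while 17 of the 25 genes were lower on average (median -0.17) and 4 of the 7 with an unadjusted p below 0.05 (14.7% of all genes) were lower. In DOX/IgG1 vs IgG1, 17 of 24 genes were lower with a median of -0.30. All 3 at an unadjusted p below 0.05 (7.73% of all genes) were lower, and Epcam differed by -0.87. In that comparison, with replicate 1 left out, 9 genes passed that p (13.0% of all genes), 3 of them higher and 6 of them lower. Among the anti-PD-1 groups, DOX/anti-PD-1 vs anti-PD-1, 12 genes were higher and 13 lower, with a median of -0.039, and of the 4 at that p (8.63% of all genes) 3 were higher, while Epcam differed by -0.21. In anti-PD-1 vs IgG1, 18 of 24 genes were lower with a median of -0.21, and the 2 at that p (4.60% of all genes) were lower. For the interaction, none of the 25 genes passed that p (4.71% of all genes). Without DOX/IgG1 replicate 1, 3 did (6.45% of all genes), all higher. The E-cadherin gene Cdh1, a textbook target of these repressors that is named outside the rule for naming genes and after values were seen, was between 334 and 402 TPM in tumors without doxorubicin and between 207 and 412 TPM with it.

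Of 16 other mesenchymal targets, 10 had higher and 6 lower average levels with doxorubicin over both antibodies, none was called and the median was 0.16. The contractile genes Tagln and Acta2 differed by 1.15 (standard error 0.41, limma adjusted p = 0.292) and 0.79 (standard error 0.42, adjusted p = 0.476), and the matrix gene Tnc by -1.05 (standard error 0.41, adjusted p = 0.341). Spp1, the most abundant, differed by -0.42. With DOX/IgG1 replicate 1 left out, Tagln at 1.42 (adjusted p = 0.0933) and Acta2 at 1.20 (adjusted p = 0.0693) were called, but the list as a whole had 8 higher and 8 lower, with a median of 0.015 against 0.13 over all genes.

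The same list was read in single comparisons. In DOX/anti-PD-1 vs anti-PD-1 tumors, 12 of the 15 targets tested had higher average levels, 7 of them at an unadjusted p below 0.05 (8.63% of all genes), and the median was 0.61 against 0.11 over all genes. In DOX/IgG1 vs IgG1 tumors, 8 were higher and 8 lower, with a median of -0.018 against 0.12 over all genes, and the 2 with an unadjusted p below 0.05 (7.73% of all genes) were both lower. Of the 8 that passed this p with replicate 1 left out (13.0% of all genes), 4 were higher and 4 lower. In anti-PD-1 vs IgG1 tumors 14 of 16 were lower on average, with a median of -0.39.

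The 12 TGF-beta pathway genes were ligands, receptors and Smads, with Skil and Ltbp1. They include inhibitors of the pathway such as Smad6 and Smad7, so counts of directions mix opposite roles. Of the 12, 5 had higher and 7 lower average levels with doxorubicin over both antibodies, and the median was -0.042. These were 6 and 6, with a median of 0.052, when DOX/IgG1 replicate 1 was left out. Smad3, Smad6 and Smad7 had the largest differences, 0.63, -0.64 and 0.57, and Tgfb3, the most abundant, had -0.19. None of these genes was called in any of the 7 comparisons, nor was any gene of the 3 other lists when all tumors were kept.

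Markers of cell types that can carry the same genes were read beside these results. All 8 fibroblast markers were tested, and in DOX/anti-PD-1 vs anti-PD-1 tumors all 8 had higher average levels, with a median of 0.64 against 0.11 over all genes, and 4 had an unadjusted p below 0.05 (8.63% of all genes). In DOX/IgG1 vs IgG1 tumors 5 were higher and 3 lower, with a median of 0.18, and the only one with an unadjusted p below 0.05, Col1a1, was lower, at -1.20 (limma adjusted p = 0.494). In anti-PD-1 vs IgG1 tumors all 8 were lower on average, with a median of -0.24 against -0.026 over all genes. Every other marker list also had a negative median there, from -0.25 for luminal epithelial to -0.69 for skeletal muscle markers. Over both antibodies 6 fibroblast markers were higher and 2 lower on average, with a median of 0.31 and 1 at an unadjusted p below 0.05 (12.0% of all genes). All 8 were higher when DOX/IgG1 replicate 1 was left out, 3 of them at that p (14.7% of all genes), with a median of 0.43. In DOX/anti-PD-1 vs DOX/IgG1, 5 fibroblast markers were higher and 3 lower with all tumors, and 3 higher and 5 lower without that tumor. All 3 that then had an unadjusted p below 0.05 (7.54% of all genes) were lower. All 8 macrophage and leukocyte markers were lower in both settings. For anti-PD-1 over both chemotherapy arms without that tumor, all 8 fibroblast markers were lower, with a median of -0.48.

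The summed level of the fibroblast markers was 1231, 1162 and 1824 TPM in IgG1, 942, 861 and 709 TPM in anti-PD-1, 549, 1880 and 1312 TPM in DOX/IgG1 and 1098, 1436 and 1602 TPM under DOX/anti-PD-1. The lowest sum was that of DOX/IgG1 replicate 1 and the highest that of DOX/IgG1 replicate 2, Col1a1 was the most abundant marker, and none was listed at 0 in any tumor. Dcn was at 95.4, 72.9 and 127 TPM in IgG1, 90.9, 98.2 and 93.7 TPM in anti-PD-1, 76.8, 619 and 323 TPM in DOX/IgG1 and 205, 175 and 201 TPM under DOX/anti-PD-1, so it separated the tumors much as Vim did. Leaving out DOX/IgG1 replicate 1, limma called Dcn and Lum over both antibodies, at 1.55 and 1.13 (adjusted p = 0.0208 and 0.0412), and Dcn in DOX/IgG1 vs IgG1 at 2.21 (adjusted p = 0.0458). In the latter comparison 4 fibroblast markers were higher and 4 lower, with a median of 0.42 against 0.15 over all genes. Of the 4 with an unadjusted p below 0.05 (13.0% of all genes), 3 were higher and 1 was lower.

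The mean log2 level of the fibroblast markers correlated over 12 tumors with Zeb2 at 0.80, Zeb1 at 0.80, Snai2 at 0.73, Vim at 0.73, Cdh2 at 0.67, Twist1 at 0.61, Twist2 at 0.49, Snai1 at -0.14, Fn1 at -0.39 and Grhl2 at -0.57, as a description with no p. With DOX/IgG1 replicate 1 left out, the values were 0.85 for Vim, 0.47 for Cdh2, -0.36 for Grhl2 and -0.011 for Fn1, and those of Zeb1 and Zeb2 were 0.77 and 0.74. Their part in the differences of the mesenchymal genes was not tested. For the 8 pericyte and smooth muscle markers, led by Myh11, the sum was 133, 106 and 174 TPM in IgG1, 134, 117 and 119.7 TPM in anti-PD-1, 94.3, 229 and 266 TPM in DOX/IgG1 and 159.9, 152 and 184 TPM under DOX/anti-PD-1. DOX/IgG1 replicate 1 was again lowest and replicates 2 and 3 highest, none of these markers was listed at 0, and over both antibodies 5 were higher and 3 lower on average, with a median of 0.23. With DOX/IgG1 replicate 1 left out there were again 5 higher and 3 lower, and Myh11 was called, at 1.31 (adjusted p = 0.0588), against 1.44% of all genes. Their part was not tested either.

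All 8 adipocyte markers had higher average levels with doxorubicin over both antibodies, with a median of 1.00 and 3 at an unadjusted p below 0.05 (12.0% of all genes). The median was 1.29 and 6 passed that p (14.7% of all genes) when DOX/IgG1 replicate 1 was left out. In DOX/anti-PD-1 vs anti-PD-1 tumors all 8 were higher, 7 of them at an unadjusted p below 0.05 (8.63% of all genes), with a median of 1.43, the largest of the marker lists. In DOX/IgG1 vs IgG1 tumors 7 were higher, none at that p, with a median of 0.50, or 0.88 without DOX/IgG1 replicate 1. Cfd was the most abundant, and the sums were 100.7, 341 and 257 TPM in IgG1, 154, 104 and 175 TPM in anti-PD-1, 193, 901 and 146 TPM in DOX/IgG1 and 855, 304 and 249 TPM under DOX/anti-PD-1. The high sums were those of DOX/IgG1 replicate 2 and DOX/anti-PD-1 replicate 1, of which the first was also the highest in Vim, and 2 of the markers were listed at 0 in IgG1 replicate 1. The markers correlated with Zeb2 at 0.61 and with Vim at 0.45 (0.63 and 0.45 over 11 tumors), and their part was not tested.

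The 8 luminal epithelial markers, 7 of which are also among the epithelial program genes, summed to between 2293 TPM in DOX/IgG1 replicate 1 and 3949 TPM in DOX/IgG1 replicate 3, so epithelial transcripts were abundant in all 12 tumors, and none was listed at 0. Their median over both antibodies was -0.13, with 2 higher and 6 lower on average. The basal epithelial markers, of which 7 of 8 were tested with a median of 0.24 and some were listed at 0, summed to between 75.8 and 217 TPM, led by Oxtr, which was called without DOX/IgG1 replicate 1 at 1.09 (adjusted p = 0.0474). Endothelial markers, led by Pecam1, summed to between 81.5 and 158 TPM, and macrophage and leukocyte markers, led by Lyz2, to between 393 and 805 TPM, with medians over both antibodies of 0.10 and 0.22. Skeletal muscle markers, led by Acta1, ranged from a sum of 0 TPM in DOX/anti-PD-1 replicate 2, where all 8 were listed at 0 (zeros also occurred in 4 other tumors), to 968 TPM in DOX/anti-PD-1 replicate 1, with a median of -0.0013 (0.14 with DOX/IgG1 replicate 1 left out) and correlations with the 10 genes between -0.32 and 0.38.

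**Figure D4:**
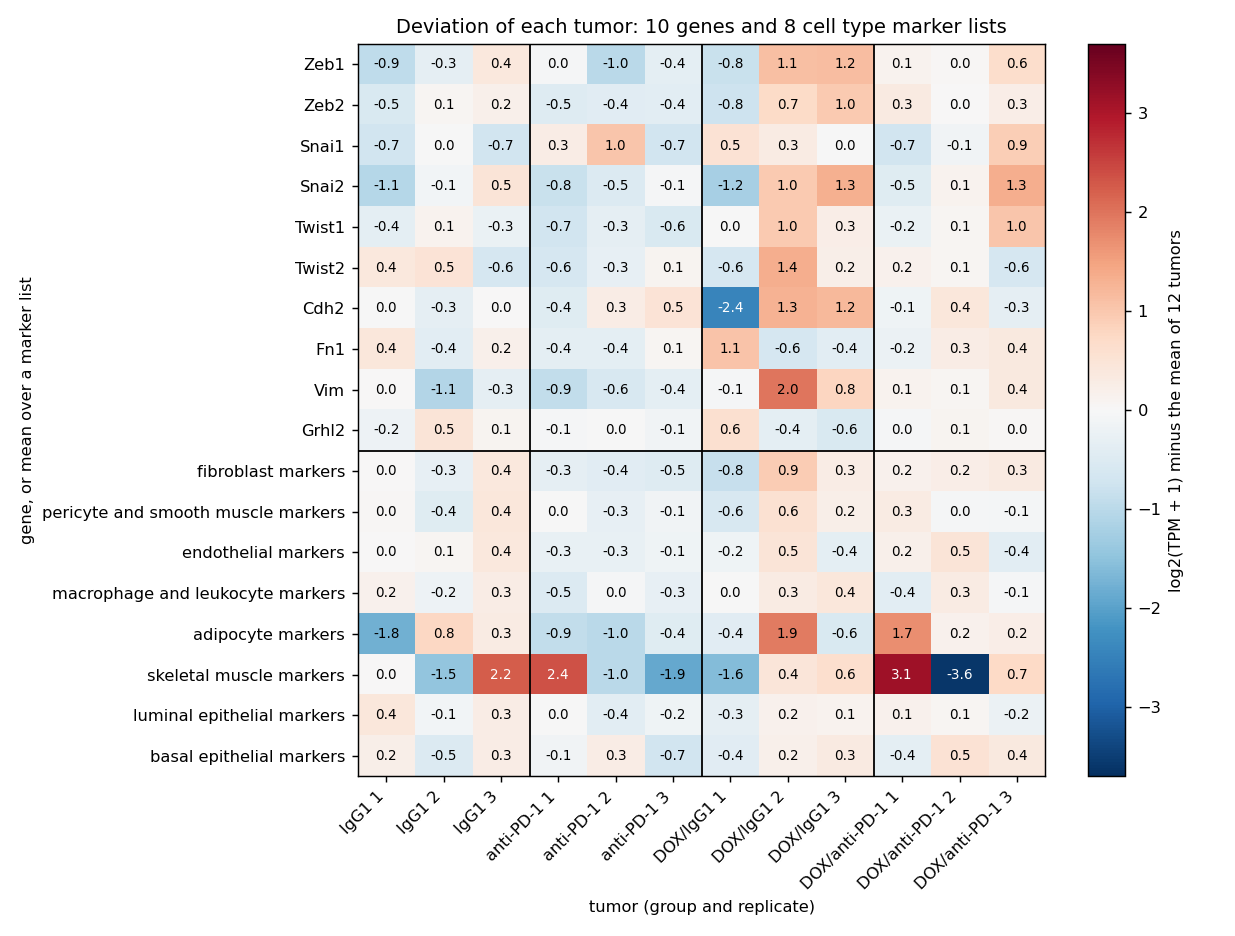
Deviation of log2(TPM + 1) from the mean of 12 tumors for the 10 genes (top) and for the mean of each of 8 marker lists (bottom), with tumors in columns by group and replicate. DOX/IgG1 replicate 1 is low in Cdh2 (-2.44), Snai2 and the fibroblast markers (-0.85), DOX/IgG1 replicates 2 and 3 are high in Zeb1, Zeb2, Snai2 and Cdh2, and the skeletal muscle markers swing most.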

How the data were processed

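The authors trimmed reads with skewer, aligned them to mm10 by STAR, quantified genes by RSEM (versions not given in the sources used here) and deposited log2(TPM + 1) with decimal commas. Reversing the log2 step gave multiples of 0.01, and listed TPM summed to between 609418 and 725506. FPKM cannot be told apart from these values alone. The authors used DESeq2. Count-based tests need counts, which normalized files lack, so limma 3.58.1 (R 4.3.3) was run instead with lmFit and trended eBayes, two-sided, with Benjamini-Hochberg adjustment over all genes tested, and checked on simulated data. The members and lists were chosen with earlier results of these data known. All members were named, and of other lists the called genes, or else up to 3 with the largest difference for doxorubicin over both antibodies and the most abundant; not every gene that this covers is reported. Positions came from GENCODE vM21. Alternatives were another pseudocount, other filters, median-of-ratios scaling, no trend, a replicate block, all tumors in one fit and leaving out each tumor.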

Additional observations from a re-analysis of the deposited data

How the results depend on the processing

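The log2 differences of the 10 genes in 7 comparisons gave 65 results and 985 values under other settings, of which 901 kept their sign and their side of the limits, 82 changed sign and 2 (Vim and Zeb1 without DOX/IgG1 replicate 1) passed the limits. Each of the 32 results that changed sign was at most 0.26 in size with all tumors, and the cause was not tested. Zeb1, Zeb2, Snai2, Twist1 and Vim did not change sign in any doxorubicin comparison.

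For the results that changed sign when a tumor was left out, leaving out each in turn gave these ranges. In DOX/IgG1 vs IgG1, Cdh2 lay between -0.52 and 1.34, Fn1 between -0.57 and 0.26 and Twist2 between -0.29 and 0.70. In DOX/anti-PD-1 vs anti-PD-1, Cdh2 lay between -0.41 and 0.058 and Snai1 between -0.63 and 0.24. In anti-PD-1 vs IgG1, Snai2 lay between -0.65 and 0.13, Vim between -0.45 and 0.096 and Zeb1 between -0.49 and 0.18. In DOX/anti-PD-1 vs DOX/IgG1 the ranges were -1.25 to 0.61 for Cdh2, -0.20 to 0.64 for Fn1, -0.080 to 0.49 for Grhl2, -0.71 to 0.11 for Snai1, -0.80 to 0.48 for Snai2, -0.49 to 0.17 for Twist1, -0.87 to 0.12 for Zeb1 and -0.65 to 0.22 for Zeb2. For doxorubicin over both antibodies they were -0.30 to 0.52 for Cdh2, -0.056 to 0.31 for Fn1, -0.21 to 0.048 for Grhl2 and -0.046 to 0.39 for Twist2. For anti-PD-1 over both chemotherapy arms they were -0.43 to 0.39 for Cdh2, -0.25 to 0.12 for Fn1, -0.15 to 0.10 for Grhl2, -0.026 to 0.43 for Snai1 and -0.48 to 0.083 for Snai2. For the interaction they were -1.48 to 0.38 for Cdh2, -0.56 to 0.71 for Snai2, -0.12 to 0.54 for Twist1, -0.55 to 0.44 for Twist2, -0.70 to 0.28 for Zeb1 and -0.32 to 0.54 for Zeb2.

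Other results kept their sign but moved by over 1.5 times, with these ranges. In DOX/IgG1 vs IgG1 they were 0.85 to 1.88 for Vim, 0.45 to 1.43 for Zeb1, 0.085 to 0.95 for Zeb2, 0.089 to 1.36 for Snai2, 0.29 to 0.77 for Twist1 and -0.60 to -0.023 for Grhl2. In DOX/anti-PD-1 vs anti-PD-1 they were 0.47 to 0.95 for Zeb1, 0.30 to 1.20 for Snai2, 0.45 to 1.09 for Twist1, 0.24 to 0.53 for Fn1 and 0.067 to 0.14 for Grhl2. In anti-PD-1 vs IgG1 they were -0.55 to -0.18 for Zeb2, -0.47 to -0.22 for Twist1, 0.032 to 0.50 for Cdh2, -0.52 to -0.12 for Fn1 and -0.36 to -0.038 for Grhl2. In DOX/anti-PD-1 vs DOX/IgG1 Vim lay between -1.21 and -0.19. Over both antibodies Snai2 lay between 0.45 and 1.05 and Snai1 between 0.14 and 0.53. Over both chemotherapy arms the ranges were -0.62 to -0.16 for Vim, -0.48 to -0.040 for Zeb1, -0.47 to -0.081 for Zeb2, -0.42 to -0.13 for Twist1 and -0.61 to -0.17 for Twist2. For the interaction they were -1.07 to -0.042 for Vim, 0.093 to 0.93 for Fn1, 0.13 to 0.70 for Grhl2 and -1.40 to -0.53 for Snai1. Settings other than leaving out a tumor took Snai1 further, to 1.07 over both antibodies and to -2.82 for the interaction. They took Snai1 to -1.08 in DOX/anti-PD-1 vs DOX/IgG1, and Twist2 to -0.77 for anti-PD-1 over both chemotherapy arms.

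The number of the 10 genes called was 0 under every setting other than leaving out tumors, where it ranged from 0 to 2 for doxorubicin over both antibodies and stayed at 0 elsewhere. The genes whose groups did not overlap, when tumors were left out, ranged from 0 to 8 in DOX/IgG1 vs IgG1, 4 to 7 in DOX/anti-PD-1 vs anti-PD-1, 0 to 3 in anti-PD-1 vs IgG1 and 0 to 6 in DOX/anti-PD-1 vs DOX/IgG1, an alternative chosen after seeing the data. Leaving out tumors moved the calls among all genes to between 0 and 122 in DOX/IgG1 vs IgG1, 0 and 212 for doxorubicin over both antibodies, 0 and 1 for the interaction and 0 and 4 in each of the 3 other two-group comparisons; both maxima above 100 came without DOX/IgG1 replicate 1.

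With pseudocount 0.1, Cdh2 was at -0.047 in DOX/IgG1 vs IgG1, Cdh2 at 0.14 and Snai2 at 0.027 in DOX/anti-PD-1 vs DOX/IgG1, Twist2 at 0.0915 for the interaction, and 0 genes were called for the interaction. With median-of-ratios scaling, Grhl2 was at -0.019 in DOX/anti-PD-1 vs anti-PD-1 and Snai2 at 0.019 in DOX/anti-PD-1 vs DOX/IgG1, 1 member (Zeb2) separated anti-PD-1 from IgG1 tumors, 3 rather than 4 (without Zeb1) separated DOX/anti-PD-1 from anti-PD-1 tumors, and all-gene calls were 3 in DOX/anti-PD-1 vs DOX/IgG1, 14 for doxorubicin over both antibodies and 0 for the interaction. Without the mean-variance trend, all-gene calls were 13, 3, 1 and 3 in DOX/IgG1 vs IgG1, DOX/anti-PD-1 vs anti-PD-1, anti-PD-1 vs IgG1 and DOX/anti-PD-1 vs DOX/IgG1, 0 for doxorubicin over both antibodies and 3 for the interaction. No filter gave 3 calls for the interaction and a mean of at least 1 TPM gave 0, and all 12 tumors in one fit gave 2 calls in DOX/anti-PD-1 vs DOX/IgG1.

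With the replicate number as a replicate block, all-gene calls were 2 in DOX/IgG1 vs IgG1, 1 for doxorubicin over both antibodies and 0 for the interaction, none of the 10 genes was called and no other count changed. The labels do not say that a number marks a shared animal or day, and the correlations of same-numbered deviations from group means lay between -0.0963 and 0.134 over 12 pairs, so the numbers were not taken as pairing.

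The limits are 3 tumors a group, unknown depth, 1 library that stood apart, and doxorubicin groups that also differ in starting tumor size and schedule. The column headers of DOX/anti-PD-1 tumors carry another suffix than those of the other groups, of unstated meaning, which cannot be told apart from the group. Snai1 and Twist2 were too low for firm values. Opposite-strand genes overlap 6 of the 10 genes. The levels are from whole tumors, and protein was not measured.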
